A study of Mus musculus with 3 samples.

Results

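Among single cells of mouse dorsal root ganglia (DRGs), a set of glia was taken that carried transcripts of Entpd2 and Cdh19 and none of Scn7a. A cell was a member when it had at least 500 detected genes, at most 20% mitochondrial transcripts, at least 1 transcript of Entpd2 and at least 1 of Cdh19. It also had to have no Scn7a, less than 0.5% of its transcripts from Fabp7, no Egr3, at most 1 transcript over the myelin genes Mag, Prx and Ncmap, and no transcript of the endothelial genes Pecam1 and Cdh5 or of the macrophage genes Csf1r and C1qa. At most 1 transcript over the neuronal genes Snap25 and Rbfox3 was allowed. In all, 217 of 9662 cells that passed the limits on genes and mitochondrial transcripts were members, namely 32 cells from naïve mice, 66 cells at day 7 and 119 cells at day 14 after nerve injury. Transcripts were counted as unique molecular identifiers (UMIs), which count each captured molecule 1 time however often PCR copied it. Since the cells were chosen by their own transcripts, their levels of the selecting genes and their differences from other cells are descriptions and carry no test.

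The cells came from L3 and L4 DRGs of male C57BL/6J mice at 13 weeks of age. The study's methods name younger, female mice of this strain and do not describe the single-cell experiment. Of the 3 libraries, 1 came from untreated, naïve mice, 1 from mice 7 days and 1 from mice 14 days after spared nerve injury of both hindlegs, and each pooled 8 DRGs of 2 mice. The study's Results name partial sciatic nerve ligation for these single-cell data, while its Discussion and the labels name spared nerve injury. With 1 library per condition and mice that cannot be separated within it, conditions were compared without a test or p-value, and the injury, the mice and the library cannot be told apart.

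The libraries held 22343246 to 36550911 UMIs in 3281 to 4908 barcodes, and the 3152 naïve, 2682 day 7 and 3828 day 14 cells that passed had medians of 3072, 4010.5 and 4199 UMIs. The selected glia summed to 128264, 415057 and 693516 UMIs in the same order, with medians of 3942.5, 5174.5 and 5185 UMIs and of 1898.5, 2303 and 2382 detected genes per cell. Their median mitochondrial share was 11.6% in the naïve library, 14.4% at day 7 and 15.2% at day 14, against 9.85%, 10.7% and 11.4% over all cells that passed. Levels are given as CPM, the UMIs of a gene over all UMIs of the selected cells in a library, scaled to the same total. Intervals are 95% intervals for counting error and do not cover the spread between mice, cells or libraries. No barcode was shared between the members of different libraries, and Scrublet, which looks for droplets with 2 cells, marked 90 cells (0.931%) and none of the members.

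DRGs hold several kinds of glia that arise from the neural crest. Satellite glial cells (SGCs) wrap the cell bodies of sensory neurons, buffer potassium and take up transmitter, and non-myelinating Schwann cells hold bundles of thin axons, while myelinating Schwann cells wrap large axons in myelin. Entpd2 encodes an ectonucleotidase that splits extracellular ATP, a transmitter released from injured or active neurons, and it is known from SGCs and non-myelinating Schwann cells. Cdh19 encodes a cadherin of the Schwann cell lineage. Scn7a encodes an atypical sodium channel found in non-myelinating Schwann cells, Fabp7 a fatty acid binding protein that marks SGCs, and Egr3 a transcription factor of the early growth response family.

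The selected glia formed a larger share of the cells in both injured libraries. Members were 1.02% of naïve cells (32 of 3152, exact Clopper-Pearson interval 0.695% to 1.43%), 2.46% at day 7 (66 of 2682, 1.91% to 3.12%) and 3.11% at day 14 (119 of 3828, 2.58% to 3.71%). The share was 2.42-fold the naïve share at day 7 (interval 1.57 to 3.82) and 3.06-fold at day 14 (2.06 to 4.68). The day 14 share was 1.26-fold the day 7 share, with an interval of 0.927 to 1.73 that includes 1. More cells of this kind, cells that crossed a limit of the rule and a different yield of other cells cannot be told apart in such a share.

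The direction of these shares turned when the limits on the cells were stricter. When cells needed 1000 detected genes and no more than 10% mitochondrial UMIs, 9 of 1343 naïve cells, 5 of 1083 cells at day 7 and 2 of 1363 cells at day 14 were members (0.670%, 0.462% and 0.147%), which gave 0.689-fold the naïve share at day 7 (0.181 to 2.29) and 0.219-fold at day 14 (0.0230 to 1.06). Without any limit on the cells the shares were 0.987%, 2.65% and 3.67%. More than 50% of the selected glia in each library had over 10% mitochondrial UMIs, and the part of mitochondrial content in the shares was not tested. The shares were also read at equal depth, and the part of depth in them was not tested. When each cell was reduced to 2000 UMIs, which left out 822, 384 and 440 cells and 5, 2 and 5 members, the expected shares were 0.777%, 1.91% and 2.70%, and the folds over the naïve share were 2.46 and 3.48. The same cells had shares of 1.16%, 2.79% and 3.36% before that reduction.

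**Figure D1:**
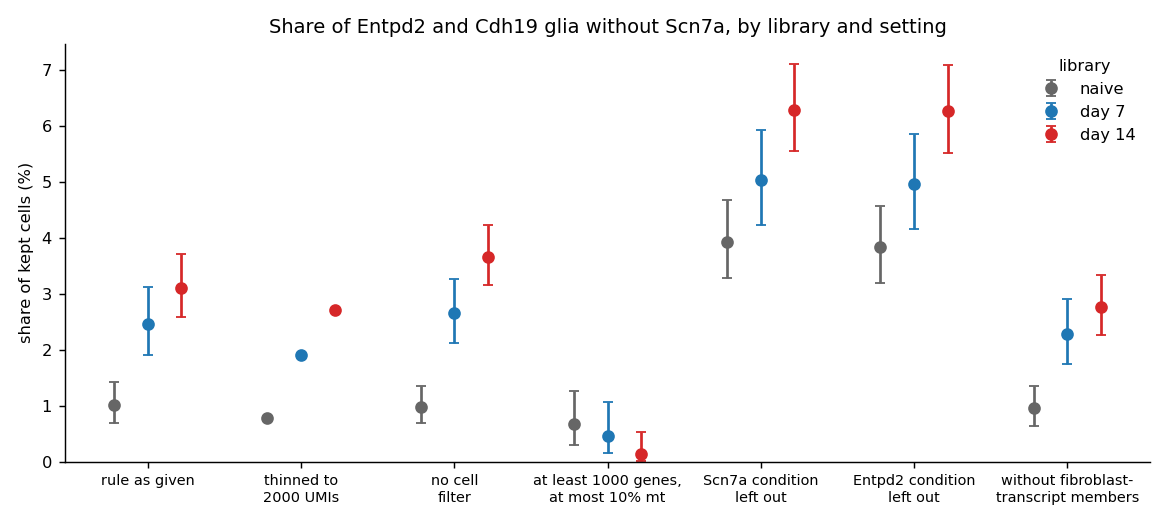
Share of the cells in each library that were Entpd2 and Cdh19 glia without Scn7a (y axis, percent of kept cells), with the rule as given and under 6 other settings (x axis). Points are shares and bars 95% Clopper-Pearson intervals, with no interval for thinned counts. The naïve point is lowest in each setting except the one with 1000 detected genes and 10% mitochondrial UMIs as limits, where it is highest at 0.670% and day 14 is lowest at 0.147%.

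Leaving out a condition of the rule can only keep or add members, so no share could fall. When Entpd2, Scn7a, Fabp7, Egr3 or Cdh19 was left out, the folds over naïve moved by different amounts. A fold that falls as all shares rise does not show that a condition carried the difference between libraries. Without the condition on Entpd2 the members were 3.84%, 4.96% and 6.27% of the cells, and the folds over naïve fell to 1.29 (1.002 to 1.67) and 1.63 (1.31 to 2.05). Leaving out the condition on Scn7a gave 3.93%, 5.03% and 6.30%, with folds of 1.28 (0.995 to 1.65) and 1.60 (1.28 to 2.00). Leaving out the condition on Fabp7 gave 3.68%, 5.63% and 5.85%, with folds of 1.53 and 1.59. By contrast, the folds were 2.27 and 2.39 without the condition on Egr3 and 2.15 and 2.65 without that on Cdh19. With at least 2 UMIs of both Entpd2 and Cdh19, 4 naïve cells, 32 cells at day 7 and 71 cells at day 14 were left, and the folds were 9.40 (3.33 to 36.6) and 14.6 (5.46 to 55.1).

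Glia on the other side of these conditions had their own shares. All met the same limits on myelin, endothelial, macrophage and neuronal genes, and none was chosen by Entpd2. Cells with at least 1 Egr3 UMI and no Scn7a, at any Fabp7 level and with or without Cdh19, are called Egr3 glia here and were 12.4% of naïve cells, 6.86% at day 7 and 5.36% at day 14. Fabp7-high glia, with at least 0.5% of UMIs from Fabp7 and no Egr3 or Scn7a, were 5.87%, 4.85% and 4.18%. Scn7a-positive glia, with Cdh19, no Egr3 and Fabp7 below the limit, were 4.51%, 3.36% and 4.28%. Among cells that met the rule apart from Egr3, those with an Egr3 UMI were 29 of 61 in the naïve library (47.5%), 52 of 118 at day 7 (44.1%) and 58 of 177 at day 14 (32.8%). Their median depths were 8102, 7483 and 8062 UMIs, against 3942.5, 5174.5 and 5185 UMIs in the members. The part of depth in the absence of Egr3 was not tested. Among cells that met it apart from Scn7a, 7, 7 and 17 cells had 1 Scn7a UMI, 7, 6 and 15 had 2, and 78, 56 and 90 had 3 or more.

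Members lay close to several limits. For Fabp7, 5, 9 and 18 members had between 0.4% and 0.5% of their UMIs from it, and 6, 5 and 14 otherwise matching cells had between 0.5% and 0.6%. The highest member values were 0.481%, 0.480% and 0.485%, and the lowest values outside were 0.515%, 0.503% and 0.502%. The median member had 0.201%, 0.194% and 0.213% Fabp7, and 5, 8 and 9 members had none. Entpd2 was held by a single UMI in 27 of 32 naïve members, 29 of 66 at day 7 and 41 of 119 at day 14, and 89, 67 and 121 cells met all conditions but had no Entpd2 UMI. The median member held 2.5, 6 and 7 Cdh19 UMIs.

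Entpd2 itself was read at 288 CPM in the naïve members (37 UMIs), 349 CPM at day 7 (145 UMIs) and 443 CPM at day 14 (307 UMIs). In Scn7a-positive glia its level was 689.9, 791 and 704 CPM in the same order, in Fabp7-high glia 162, 197 and 195 CPM and in Egr3 glia 81.6, 137 and 152 CPM. The naïve value was the lowest of the 3 libraries in each of these sets. For the members the rule set a floor, since each had to hold at least 1 UMI of Entpd2 and of Cdh19. Of the 32 naïve members, 27 held a single Entpd2 UMI. In Egr3 glia the share of cells with an Entpd2 UMI was 32.7%, 56.5% and 53.7% at median depths of 5581, 7206 and 6743 UMIs. Endothelial cells, which should lack Entpd2, had a UMI of it in 2.46%, 3.08% and 4.46% of cells at median depths of 4346, 4967 and 5642 UMIs. Cdh19 stood at 741, 1156 and 1244 CPM in the members and 456, 614 and 729.9 CPM in Egr3 glia, and Cdh19 of Scn7a-positive glia stood at 1663, 1464 and 1345 CPM. In the members and in Egr3 glia Cdh19 was higher in both injured libraries, and in Scn7a-positive glia it was lower.

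Pan-glial genes that the rule did not use were present in most selected cells. Sox10, the transcription factor that defines this lineage, was present at 577, 513 and 487 CPM in the naïve, day 7 and day 14 members, and in 23, 57 and 106 of the 32, 66 and 119 cells. Endothelial cells had 10.2, 17.3 and 9.52 CPM of Sox10. Erbb3, the neuregulin receptor, stood at 366, 499 and 469 CPM. All 6 pan-glial genes were detected, none differed 2-fold between libraries, and their median log2 ratio over naïve was 0.07 at day 7 and 0.16 at day 14, against -0.06 and -0.04 over all 3658 genes with a mean of at least 50 CPM. Egr2, a transcription factor of myelination, stood at 15.6, 12.0 and 13.0 CPM in the members against 219, 295 and 289 CPM in myelinating cells, which were chosen for at least 5 UMIs over Mag, Prx and Ncmap.

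Genes of SGCs and of non-myelinating Schwann cells were both present. Kcnj10, the inward rectifier by which SGCs clear potassium, stood at 499, 494 and 425 CPM in the members, close to 579, 610.1 and 554 CPM in Egr3 glia, whereas Scn7a-positive glia had 172, 219 and 235 CPM. Ednrb, the endothelin B receptor, stood at 1785, 2385 and 1922 CPM against 1869, 2448 and 2179.8 and 333, 620.3 and 627 CPM in these 2 sets. L1cam, an adhesion molecule of non-myelinating Schwann cells, was 242, 243 and 254 CPM in the members, above the 72.8, 106 and 136 CPM of Egr3 glia and below the 490.3, 389 and 349 CPM of Scn7a-positive glia. Ngfr, the low-affinity neurotrophin receptor, was 109, 38.5 and 123 CPM in 7, 11 and 26 cells, whereas Egr3 glia had 7.32, 4.86 and 14.1 CPM and Scn7a-positive glia 140.1, 85.1 and 291 CPM. Not all genes lay between these sets. Glul, glutamine synthetase, stood at 335, 193 and 229 CPM in the members and 123, 259 and 242 CPM in Scn7a-positive glia, and the glutamate transporter Slc1a3 at 172, 116 and 107 against 73.5, 211 and 189.7 CPM, so both were below Scn7a-positive glia at day 7 and day 14. With genes of both cell types present, the cells are called by their rule and given no cell type name.

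**Figure D2:**
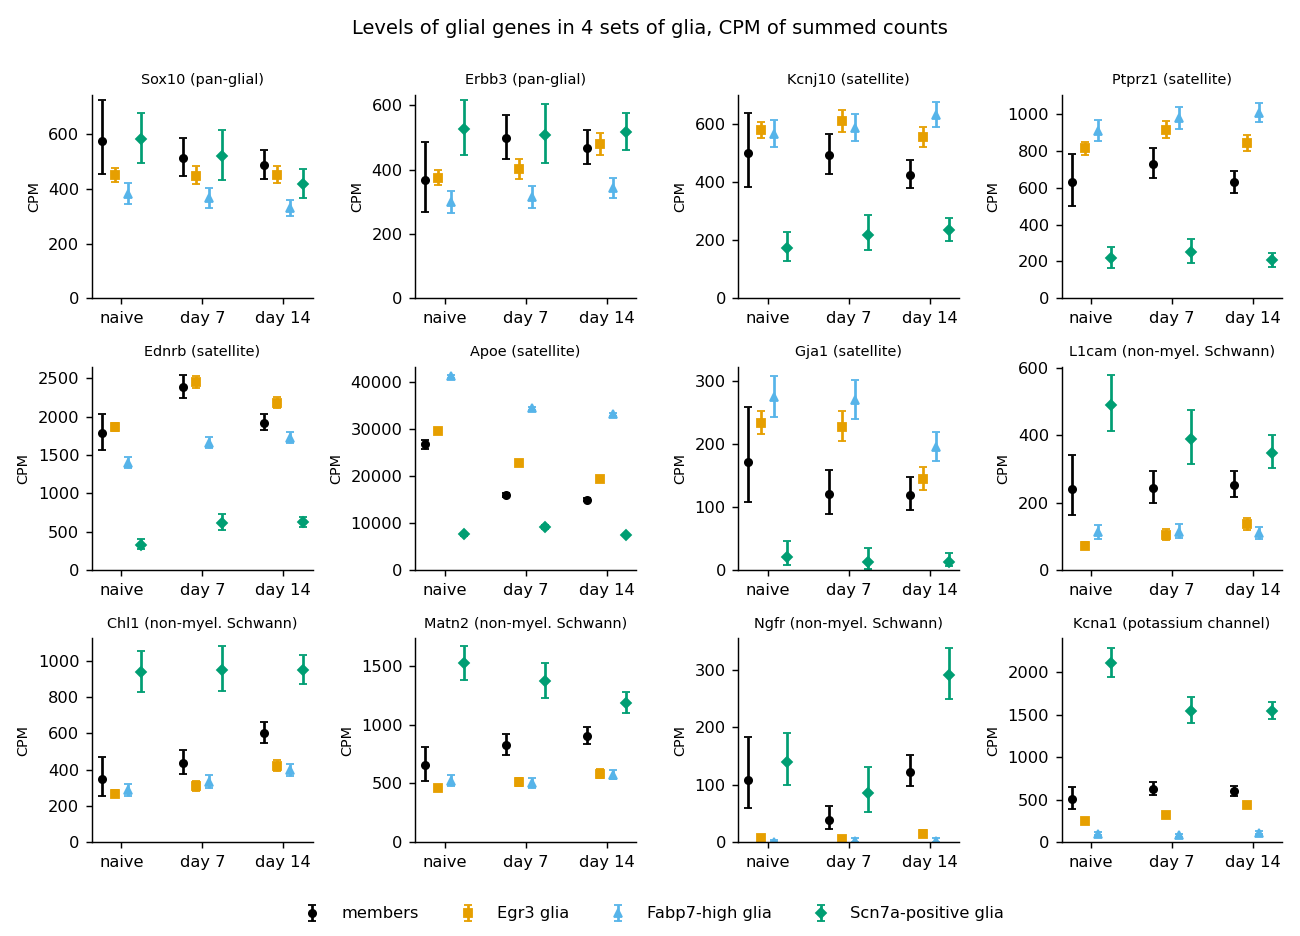
Levels of 12 glial genes (y axis, CPM of summed counts, from 0) by library (x axis) in the selected glia and 3 other sets of glia. Points are levels and bars 95% Poisson intervals. Kcnj10, Ptprz1 and Ednrb of the members lie near Egr3 glia, while L1cam, Chl1, Matn2 and Ngfr lie between Egr3 glia and Scn7a-positive glia, and Apoe is lower at day 7 and day 14 (15935 and 14990 CPM) than in naïve members (26757 CPM).

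Over all genes the members were most like Egr3 glia. Across 3548 genes, log2 levels of members and Egr3 glia had a Pearson correlation of 0.876 in the naïve library, 0.899 at day 7 and 0.949 at day 14. The values were 0.839, 0.854 and 0.899 with Fabp7-high glia, 0.745, 0.811 and 0.872 with Scn7a-positive glia, 0.630, 0.602 and 0.658 with myelinating cells, and 0.352, 0.404 and 0.393 with endothelial cells. The sets of a library share its ambient RNA but not their depth, since naïve members, Scn7a-positive, Fabp7-high and Egr3 glia held 128264, 285553, 1045541 and 2731846 UMIs, and the genes are not independent replicates.

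The members did not sit apart from other glia. Among the 15 nearest neighbours of each member, found within its library without the genes of the rule, other members made up 5.42% in the naïve library, 18.7% at day 7 and 26.3% at day 14, where members were 1.02%, 2.46% and 3.11% of all cells. Egr3 glia made up 32.5%, 28.9% and 19.4% of the neighbours, Fabp7-high glia 15%, 14.1% and 12.3%, and Scn7a-positive glia 12.3%, 7.37% and 10.3%. Cells of no named set were 34.4%, 30.1% and 31.0%. No naïve or day 7 member and 11 of 119 day 14 members had mostly members around them, while 13, 5 and 11 members had none. Scn7a-positive glia were by comparison surrounded by their own kind, with 69.8%, 57.7% and 52.8% of their neighbours.

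**Figure D3:**
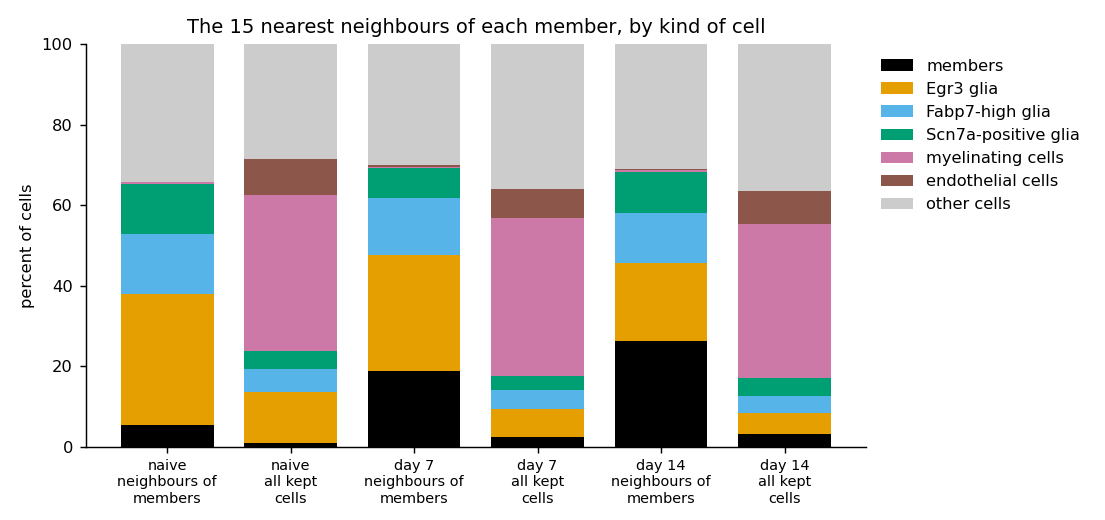
Make-up of the 15 nearest neighbours of the members beside the make-up of all kept cells in the same library (y axis, percent of cells, x axis, library). The members' own share of the neighbours is 5.42%, 18.7% and 26.3%, Egr3 glia take 32.5%, 28.9% and 19.4%, and myelinating cells, 38.6%, 39.3% and 38.3% of all cells, are nearly absent.

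By their medians, SGC genes were higher and non-myelinating Schwann cell genes lower in the members than in Scn7a-positive glia. The median log2 ratio of members over Scn7a-positive glia was 1.51, 0.98 and 0.97 over 10 SGC genes, library by library from naïve to day 14, and -1.12, -0.92 and -0.42 over 6 non-myelinating Schwann cell genes. At least 2-fold in all 3 libraries, 4 of the 10 were higher and none lower, and none of the 6 passed in either direction. Ncam1, an adhesion molecule of both cell types, stood at 951, 918 and 914 against 858, 839 and 718 CPM. Of 3763 genes with a mean of at least 50 CPM, 52 (1.38%) were at least 2-fold higher in the members in all 3 libraries and 74 (1.97%) at least 2-fold lower. The rule separated these sets, so the counts are descriptions. In Scn7a-positive glia, 12.7%, 21.1% and 34.1% of cells held at least 3 UMIs of the fibroblast genes Dcn, Lum, Col1a1 and Pdgfra. Among the members the shares of such cells were 6.25%, 7.58% and 10.9%, and their part in the differences was not tested. Gja1, the gap junction protein connexin 43 that couples SGCs, stood at 172, 120.5 and 119.7 CPM against 21.0, 12.2 and 13.5 CPM. Bcan, a proteoglycan of the pericellular matrix, stood at 748, 318 and 251 CPM against 10.5, 12.2 and 54.2 CPM, and Slc4a4, a bicarbonate transporter, at 366, 399.9 and 353 against 52.5, 93.2 and 81.3 CPM. Cntn1, an adhesion molecule, stood at 133, 161 and 149 CPM against 3.50, 32.4 and 28.8 CPM. The other genes named as higher were Lix1, Ctnnd2, Fhdc1, Sod3, 1190002N15Rik and Cnmd.

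On the lower side, Aldh1a1, which makes retinoic acid, had no UMI in any member and 137, 134 and 49.1 CPM in Scn7a-positive glia. Ntrk3, a neurotrophin receptor, had 1, 0 and 5 UMIs in the members and 389, 272 and 188 CPM in Scn7a-positive glia. Cadm2, an adhesion molecule, had 1, 1 and 11 UMIs in the members against 441, 389 and 264 CPM, and Nrn1, a small neuronal growth protein, 1, 1 and 2 UMIs against 175, 174 and 112 CPM. C1s1, Igfbp7, Rasgef1c, Sbspon, Hspb1 and Meg3 completed the lower genes.

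Differences from Fabp7-high and Egr3 glia were fewer. Against Fabp7-high glia, 25 of 3572 genes (0.7%) were at least 2-fold higher in all libraries and 34 (0.952%) lower. Kcna1, a potassium channel of axons and of Schwann cells, stood at 507, 624 and 599.8 CPM against 100.4, 79.0 and 113 CPM, and Col27a1, a fibrillar collagen, at 421, 578 and 493 against 139.6, 163 and 151 CPM. Lower genes were Aqp4, the water channel of SGCs and astrocytes, at 15.6, 28.9 and 23.1 CPM against 127, 94.6 and 96.9 CPM, Vegfa, an angiogenic factor, at 39.0, 45.8 and 24.5 against 164, 195 and 121 CPM, and Igfbp4, which binds insulin-like growth factors, at 257, 207 and 209 against 1046, 1009 and 951 CPM. Col1a1, Apod, Fgl2, Lgals1, Adam23, Col3a1, Snx16 and Fos were the other higher genes and Nrarp, Eepd1, Cspg5, Fmo1, Slc1a4, Mt3 and Adamts5 the other lower ones.

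Against Egr3 glia, 5 of 3614 genes (0.138%) were higher and 10 (0.277%) lower in all libraries. Pou3f1, a transcription factor of immature Schwann cells, stood at 85.8, 67.5 and 62.0 CPM in the members against 356, 322 and 291 CPM. Nrarp, a target and brake of Notch signalling, stood at 39.0, 4.82 and 15.9 against 125, 101 and 62.2 CPM. The other lower genes were Sema3g, Eepd1, Pde10a, Mt3, Fam212b, Kank1, Cdc42ep2 and Trim9. Of the genes named as higher, which were Col1a1, Apod, Lgals1 and Lgals3, only Lgals1, a galectin, was held by many cells in each library (12, 43 and 80 cells), at 226, 325 and 454 CPM against 89.3, 136 and 188 CPM. Of the Apod UMIs, 219 of 331, 455 of 824 and 463 of 976 came from 1 cell of each library, and 145 of the 188 Lgals3 UMIs at day 14 came from 1 cell.

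Transcripts of fibroblasts were concentrated in a few members. Dcn, a fibroblast proteoglycan, had 135, 461 and 257 UMIs in 2, 6 and 13 members, of which 122, 211 and 145 came from 1 cell. Of the 5 fibroblast genes 4 reached the minimum of 50 CPM, and 2 of these were at least 2-fold lower at day 14, as 3.47% of all genes were. The 5 fibroblast genes Dcn, Lum, Col1a1, Col1a2 and Pdgfra summed to 2924, 2643 and 1458 CPM in the members, 578, 593 and 969 CPM in Egr3 glia, 384, 465 and 545 CPM in Fabp7-high glia and 4868, 9969 and 10155 CPM in Scn7a-positive glia. Col1a2 was an exception, with a UMI in 22, 55 and 107 members. Without the 2, 5 and 13 members that held at least 3 UMIs of Dcn, Lum, Col1a1 and Pdgfra, the folds of the member share were 2.39 and 2.91, and 2 genes instead of 5 were at least 2-fold higher than in Egr3 glia. With Col1a2 counted as well, 13, 34 and 73 members held at least 3 UMIs, and without them the shares were 0.603%, 1.19% and 1.20%, with folds of 1.98 (1.09 to 3.70) and 1.99 (1.15 to 3.60). These limits were set after the values had been seen.

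Markers of other cell types were scarce in the members. The 5 endothelial genes, of which Cldn5 and Flt1 define that cell type, summed to 23.4, 16.9 and 23.1 CPM, with Flt1 at 0, 1 and 2 UMIs, against 11324, 11471 and 11064 CPM in endothelial cells. The 7 macrophage genes summed to 7.80, 79.5 and 20.2 CPM, with Cd68 at 0, 1 and 2 UMIs and 16 Lyz2 UMIs in 2 cells at day 7. The 6 mural genes summed to 62.4, 21.7 and 34.6 CPM with no Kcnj8 or Abcc9, and the 3 perineurial genes to 242, 239 and 218 CPM, most of it Itgb4, which Schwann cells share. The 9 neuronal genes summed to 85.8, 210 and 219 CPM in the members, with Tubb3, the neuronal tubulin, at 1, 21 and 38 UMIs. They were higher after injury in Egr3 glia (131, 169 and 184 CPM) and in endothelial cells (105, 164 and 190 CPM) too. Among T cell and neutrophil genes, S100a8 and S100a9 reached 153 and 271 UMIs at day 7, of which 153 and 270 came from 1 cell, and Cd3e, Cd3d and Nkg7 had none.

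Between libraries, a gene of the members was called higher or lower when its level, with 1 CPM added, differed at least 2-fold. Of 3658 genes with a mean of at least 50 CPM, 121 (3.31%) were at least 2-fold higher at day 7 than in the naïve library and 114 (3.12%) lower. At day 14, 117 genes (3.2%) were higher and 127 (3.47%) lower. In both injured libraries, 72 genes (1.97%) were higher and 46 (1.26%) lower, and between day 14 and day 7 there were 18 (0.492%) and 26 (0.711%). At the naïve depth of 128264 UMIs, 3 UMIs equal 23.4 CPM, against 7.23 CPM at day 7 and 4.33 CPM at day 14. When cells with Egr3 were let in, which raised the naïve cells from 32 to 61, the counts were 18 and 15 at day 7 and 23 and 40 at day 14.

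Serpina3n, an acute phase protease inhibitor that reactive glia secrete, had the largest ratio among the genes named as higher. It had 1 UMI in the naïve members, 48 at day 7 and 143 at day 14, held by 1, 23 and 55 cells, or 7.80, 116 and 206 CPM. Both injured libraries were far above the naïve one, with a ratio of 14.8 (2.54 to 598) at day 7 and 26.4 (4.67 to 1052) at day 14. Serpina3n was higher after injury in Egr3 glia (38.4, 80.8 and 92.2 CPM), Fabp7-high glia (56.4, 104 and 279 CPM) and Scn7a-positive glia (84.0, 138 and 249 CPM) as well, and endothelial cells had 2.27, 4.86 and 7.45 CPM.

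Stat3, the transcription factor of the acute phase response, was read at 54.6, 195 and 205 CPM from 7, 81 and 142 UMIs, a ratio of 3.58 (1.66 to 9.18) at day 7 and 3.75 (1.77 to 9.50) at day 14. Naïve Egr3 glia, with more cells, had 150.1 CPM of Stat3, and 153 and 186 CPM after injury. The 8 other genes named as higher had 1 to 3 naïve UMIs. Tshz3, a zinc finger factor, had 1, 33 and 63 UMIs and a ratio of 11.7 (2.02 to 467) at day 14, Arrdc3, an arrestin-like adaptor, 1, 31 and 67 UMIs and 12.4 (2.15 to 497), and Antxr1, a receptor for collagen and anthrax toxin, 2, 52 and 85 UMIs and 7.86 (2.11 to 66.0). Mmp14, a membrane-bound metalloproteinase, had 3, 49 and 63 UMIs and Per3, a clock gene, 3, 40 and 79 UMIs. Efnb1, an ephrin, had 2, 35 and 68 UMIs, and Tox and Gmps 2, 30 and 55 and 2, 30 and 47 UMIs.

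In Egr3 glia, where the naïve library was 392 cells deep, Tshz3 stood at 61.9, 58.9 and 57.0 CPM, Efnb1 at 119, 105 and 125 CPM and Gmps at 53.1, 52.9 and 68.7 CPM, with no 2-fold difference between libraries. With Egr3-positive cells let in, the log2 ratios of the members at day 14 were 2.09 for Serpina3n, 1.31 for Tox, 1.27 for Tshz3, 0.90 for Antxr1, 0.81 for Per3, 0.80 for Mmp14, 0.75 for Arrdc3, 0.70 for Stat3, 0.59 for Gmps and 0.26 for Efnb1. Of the 10, 3 were past 2-fold at day 14 in that setting. At day 7 the log2 ratio of Efnb1 turned to -0.082, and the others lay between 0.38 for Gmps and 1.24 for Mmp14.

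Among the genes named as lower, Ifi27l2a, an interferon-induced gene, came first, at 389.8, 62.6 and 96.6 CPM from 50, 26 and 67 UMIs, a ratio of 0.161 (0.0960 to 0.263) at day 7 and 0.248 (0.169 to 0.365) at day 14. Acsbg1, an acyl-CoA synthetase of glia, stood at 327, 133 and 119.7 CPM, with ratios of 0.405 (0.266 to 0.620) and 0.365 (0.249 to 0.543), and in Egr3 glia at 324, 318 and 214 CPM. Hspa1a, the inducible heat shock protein, stood at 234, 96.4 and 66.3 CPM in the members, 172, 76.6 and 76.9 CPM in Egr3 glia and 104, 32.6 and 12.4 CPM in endothelial cells, lower after injury in each. Mt3, a metallothionein, had 20, 20 and 39 UMIs, or 156, 48.2 and 56.2 CPM. Spry2, an inhibitor of growth factor signalling, had 17, 20 and 36 UMIs, and Efemp2, Map2k7, Ndufab1, Adrm1 and Clcn5 had 11 to 18 naïve UMIs and ratios of 0.333 to 0.404 at either day. Other settings weakened the day 7 log2 ratios to -0.36 for Adrm1 and -0.43 for Ndufab1 and Acsbg1. They reached -0.63 for Map2k7, -0.64 for Clcn5, -0.65 for Efemp2 and -0.67 for Mt3. Hspa1a reached -0.81 and Spry2 -0.84, also inside 2-fold, while Ifi27l2a stayed past it at -1.68. At day 14 only Ifi27l2a (-1.91), Hspa1a (-1.08) and Spry2 (-1.04) stayed past 2-fold in every setting with gene levels.

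**Figure D4:**
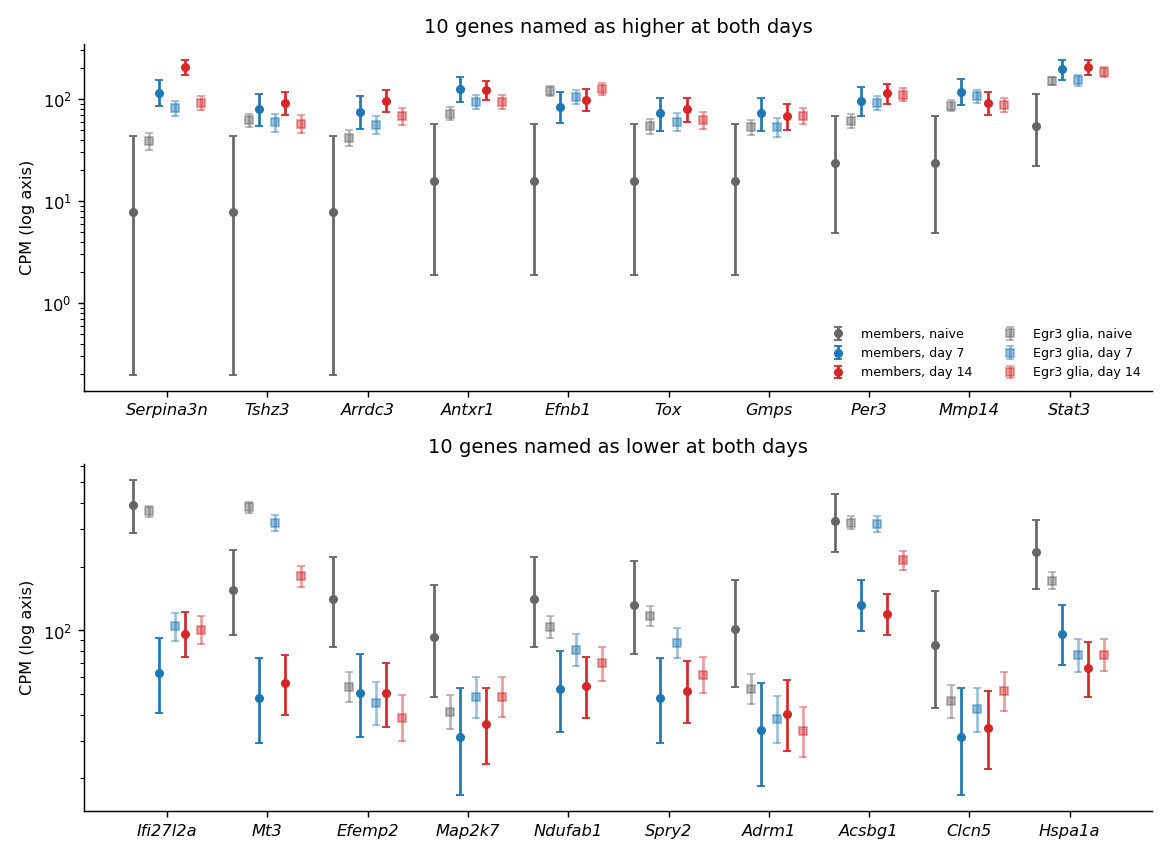
Levels of the 10 genes named as higher and the 10 named as lower (y axes, CPM on a log axis) in the members and in Egr3 glia, by library. Points are levels and bars 95% Poisson intervals. Naïve intervals of the members are wide for the higher genes, where Serpina3n goes from 7.80 to 116 and 206 CPM, while Efnb1 of Egr3 glia stays at 119, 105 and 125 CPM.

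Serpina3n and C4b were the genes past 2-fold among those known from reactive glia. Of 11 genes listed, 5 reached the minimum of 50 CPM, of which these 2 were at least 2-fold higher at both days, where 3.31% and 3.2% of all genes were, with a median log2 ratio of 0.64 and 0.74. C4b, a complement component, had 13, 110 and 313 UMIs in 8, 42 and 97 members, or 101, 265 and 451 CPM, and was 2.61-fold (95% interval 1.47 to 5.07) higher at day 7 and 4.45-fold (95% interval 2.57 to 8.46) at day 14. C4b had the same order of libraries in Egr3 glia, at 95.9, 106 and 179 CPM, and the opposite order in Scn7a-positive glia, at 1387, 1050.0 and 754 CPM. Cd44, a hyaluronan receptor, stood at 140.3, 219 and 235 CPM and Vim, an intermediate filament protein, at 2604, 2633 and 3112 CPM.

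Gfap, the intermediate filament protein used as a sign of reactive glia, had no UMI in the naïve members, which at 3 counts allows up to 23.4 CPM. It had 14 UMIs in 7 members at day 7 and 24 UMIs in 16 members at day 14, or 33.7 and 34.6 CPM. These levels were 1.44-fold and 1.48-fold that limit, without the counting error of the injured libraries. A Gfap UMI was thus found in 10.6% and 13.4% of the members at median depths of 5174.5 and 5185 UMIs. The 32 naïve members, which had none, had a lower median depth of 3942.5 UMIs. Of endothelial cells, 0.352% held a Gfap UMI in the naïve library, none at day 7 and 0.318% at day 14, at 4346, 4967 and 5642 UMIs. Egr3 glia stood at 5.49, 3.65 and 7.05 CPM, Fabp7-high glia at 0, 9.18 and 7.23 CPM and Scn7a-positive glia at 52.5, 77.0 and 83.0 CPM. The members thus lay above Egr3 and Fabp7-high glia and below Scn7a-positive glia at both days. For these single-cell data the study reports Gfap mRNA in a few percent of naïve SGCs. It reports no significant rise of Gfap in SGCs at day 7 or day 14. The members were chosen by their transcripts and are not the study's set of SGCs, and no test was made here.

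By their median, SGC genes were slightly lower at day 14 and close to all genes at day 7. All 10 listed genes reached the minimum, none differed 2-fold, and 8 were below their naïve level at each day. The median log2 ratio was -0.13 at day 7 and -0.40 at day 14, against -0.06 and -0.04 over all genes. In Egr3 glia the medians of the list were -0.08 and -0.31. In some other settings the day 7 log2 ratio of the members turned positive for Ttyh1 (up to 0.52), Aldoc (0.87), Kcnj10 (0.15) and Dbi (0.02). Glul, Slc1a3, Gja1 and Apoe stayed below naïve at day 7 in each. Apoe, the main lipid carrier of glia, stood at 26757, 15935 and 14990.3 CPM in 32, 65 and 117 members, a ratio of 0.596 (0.571 to 0.621) and 0.560 (0.539 to 0.582). Egr3 glia had 29649.5, 22805 and 19480.1 CPM of Apoe and Fabp7-high glia 41250.4, 34460.3 and 33144 CPM. Glul, glutamine synthetase, was lower too, at 335, 193 and 229 CPM, with ratios of 0.575 (0.392 to 0.853) and 0.684 (0.486 to 0.982), whereas Ednrb stood at 1785, 2385 and 1922 CPM and was 1.34-fold (95% interval 1.16 to 1.55) higher at day 7. Slc1a3, a glutamate transporter, had 172, 116 and 107 CPM, Ttyh1 499, 451 and 337 CPM, Dbi, a benzodiazepine receptor ligand, 8857, 8199 and 7305 CPM, and Aldoc 296, 289 and 323 CPM.

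Genes of non-myelinating Schwann cells did not share a direction by more than small amounts. Of 9 listed, 6 reached the minimum, with a median log2 ratio of 0.17 and 0.12. Chl1, an adhesion molecule of the L1 family, stood at 351, 438 and 604 CPM, 1.72-fold (95% interval 1.26 to 2.40) higher at day 14, and Matn2, a matrix protein, at 655, 829 and 908 CPM, 1.39-fold (95% interval 1.10 to 1.76) higher. Ngfr was the 1 gene past 2-fold, lower at day 7, as 3.12% of all genes were, with a ratio of 0.353 (0.162 to 0.781) from 16 UMIs, while at day 14 its ratio was 1.12 (0.634 to 2.14), and 30 of its 85 UMIs came from 1 cell. Ncam1 stood at 951, 918 and 914 CPM and Cdh2 at 140.3, 188 and 141 CPM, and Gfra3 had 0, 0 and 2 UMIs. Of the 4 myelin genes at the minimum none differed 2-fold, with medians of 0.03 and -0.04.

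Potassium channel and homeostasis genes were largely level. Of 12 listed, 10 reached the minimum, with medians of 0.00 and -0.18. Kcna2, a Kv1 channel, was the exception, at 319.7, 448 and 665 CPM from 41, 186 and 461 UMIs, 1.40-fold (95% interval 0.995 to 2.02) at day 7 and 2.08-fold (95% interval 1.51 to 2.94) at day 14, and it stood at 211, 283 and 335 CPM in Egr3 glia and 1474, 1200.0 and 1234 CPM in Scn7a-positive glia. Kcna6 of the same family stood at 398, 504 and 552 CPM and Gjc3, a glial connexin, at 600.3, 781 and 841 CPM, 1.40-fold (95% interval 1.10 to 1.80) higher at day 14. The adhesion gene Cadm1 stood at 959, 1393 and 1509.7 CPM, 1.45-fold (95% interval 1.19 to 1.78) and 1.57-fold (95% interval 1.30 to 1.91) over naïve, and of 9 adhesion genes at the minimum 1, Nrcam, was 2-fold higher at day 14, as 3.2% of all genes were. Nrcam, an axonal adhesion molecule, had 5, 16 and 65 UMIs, of which 20 at day 14 came from 1 cell, and a ratio of 2.40 (0.979 to 7.65), an interval that includes 1.

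Other enzymes and receptors for extracellular nucleotides, the pathway in which Entpd2 acts, were scarce. Of 17 genes listed, 2 reached the minimum and neither differed 2-fold. P2rx7, an ATP-gated channel, stood at 101, 101 and 96.6 CPM and P2rx4 at 62.4, 69.9 and 72.1 CPM. P2ry12, a receptor for ADP, which is a product of ATP hydrolysis, had 2, 14 and 23 UMIs. Nt5e, which makes adenosine from AMP, had 0, 2 and 0 UMIs in the members, and Entpd1, a relative of Entpd2, 1, 9 and 16 UMIs. Entpd3, Ada, Adora2a and Adora2b had none.

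Every gene of the cholesterol synthesis list was below its naïve level at both days. All 12 reached the minimum, with a median log2 ratio of -0.33 at day 7 and -0.81 at day 14, against -0.06 and -0.04 over all genes, and 1, Sqle, was past 2-fold at day 14, where 3.47% of all genes were. Hmgcs1, an early enzyme of the pathway, stood at 951, 590.3 and 536 CPM, a ratio of 0.621 (0.497 to 0.778) and 0.564 (0.458 to 0.698). Sqle, squalene epoxidase, stood at 257, 135 and 108 CPM, a ratio of 0.420 (0.276 to 0.654) at day 14. Insig1, which holds back the sterol sensor, stood at 343, 183 and 182 CPM, a ratio of 0.530 (0.373 to 0.765) at day 14, and Srebf2, the transcription factor of the pathway, at 288, 246 and 150.0 CPM, a ratio of 0.520 (0.354 to 0.778). The intervals of Hmgcs1, Sqle and Insig1 lay below 1 at both days.

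The medians of this list were -0.47 and -0.71 in Egr3 glia, -0.22 and -0.26 in Fabp7-high glia, and 0.05 and 0.15 in Scn7a-positive glia. The summed level of the list was 3368, 2368 and 1911 CPM in the members, 4321, 3346 and 2718 CPM in Egr3 glia and 967, 1078 and 1092 CPM in Scn7a-positive glia. In each library the members lay between Scn7a-positive glia and Egr3 glia. Genes of lipid transport had medians of -0.30 and -0.55 over 6 genes, with Lrp1, a receptor for Apoe, at 273, 181 and 147 CPM, a ratio of 0.539 (0.364 to 0.816) at day 14, and Abca1, a cholesterol exporter, at 312, 342 and 395 CPM.

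Interferon-response genes were lower after injury in the members and in the other cells. Of 13 listed, 12 were below their naïve level at each day, 5 reached the minimum, and 4 of these were at least 2-fold lower at each day, where 3.12% and 3.47% of all genes were, with medians of -1.49 and -1.53. Isg15, a ubiquitin-like protein, stood at 125, 31.3 and 33.2 CPM and Ifit1, which binds foreign RNA, at 117, 41.0 and 51.9 CPM. Ifi27l2a was given above, and Ifitm3, a membrane protein that blocks viral entry, stood at 389.8, 352 and 324 CPM with ratios of 0.902 (0.650 to 1.27) and 0.832 (0.610 to 1.15). With Egr3-positive cells let in, Ifit1 was the 1 gene of these 5 to turn its direction, with a log2 ratio of 0.40 at day 7. The 8 genes under the minimum had at most 9 naïve UMIs. The list summed to 1528, 720 and 796 CPM in the members, 1826, 1009 and 777 CPM in Egr3 glia, 6160, 1922 and 1492 CPM in Scn7a-positive glia and 5018, 3312 and 2953 CPM in endothelial cells, so the naïve library was highest in each.

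Promoter sequences are shown for 4 genes of these lists whose windows hold a motif named below, as 300-base windows around the annotated start from RefSeq (GRCm38.p6), on the strand of the gene. Capitals mark, in the first 3, the core of the interferon-stimulated response element, which is GAAA, any 2 bases and GAAA, or on the opposite strand TTTC, any 2 bases and TTTC. In Hmgcs1 they mark a form of the sterol regulatory element, which is TCAC, any base and CCAC. Overlapping matches are joined. The windows lie at chr4:156200769-156201068 (minus strand) for Isg15, chr19:34640639-34640938 (plus strand) for Ifit1, chr19:34583279-34583578 (plus strand) for Ifit3 and chr13:119690101-119690400 (plus strand) for Hmgcs1.
Isg15: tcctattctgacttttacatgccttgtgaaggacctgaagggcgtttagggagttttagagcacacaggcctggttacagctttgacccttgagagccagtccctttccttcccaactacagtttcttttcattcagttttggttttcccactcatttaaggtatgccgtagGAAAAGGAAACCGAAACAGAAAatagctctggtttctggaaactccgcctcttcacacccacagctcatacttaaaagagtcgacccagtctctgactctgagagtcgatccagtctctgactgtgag
Ifit1: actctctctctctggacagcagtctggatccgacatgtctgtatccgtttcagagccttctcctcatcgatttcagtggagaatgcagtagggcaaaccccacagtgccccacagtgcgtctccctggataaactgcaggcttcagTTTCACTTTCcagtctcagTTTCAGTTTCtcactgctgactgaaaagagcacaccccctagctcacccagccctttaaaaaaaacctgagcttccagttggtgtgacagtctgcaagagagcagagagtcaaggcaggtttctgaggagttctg
Ifit3: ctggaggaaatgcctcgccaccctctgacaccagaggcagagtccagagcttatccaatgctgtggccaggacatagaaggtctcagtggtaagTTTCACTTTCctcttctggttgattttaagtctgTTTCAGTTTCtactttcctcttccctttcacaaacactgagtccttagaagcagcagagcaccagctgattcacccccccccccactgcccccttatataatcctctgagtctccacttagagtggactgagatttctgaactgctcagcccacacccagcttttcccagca
Hmgcs1: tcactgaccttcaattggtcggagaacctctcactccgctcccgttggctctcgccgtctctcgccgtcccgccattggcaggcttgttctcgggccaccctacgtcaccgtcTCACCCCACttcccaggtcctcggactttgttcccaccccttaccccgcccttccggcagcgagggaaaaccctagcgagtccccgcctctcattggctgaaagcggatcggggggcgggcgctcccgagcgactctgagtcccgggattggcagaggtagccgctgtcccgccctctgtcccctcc

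Searched on both strands, the interferon motif was in 1131 of 32851 RefSeq promoter windows (3.44%). Of the 13 interferon-response genes, 9 had a window, and 5 of these (Bst2, Ifit1, Ifit3, Ifitm3 and Isg15) held it. The sterol motif was in 408 windows (1.24%), and of the 12 cholesterol genes 6 had a window, of which Hmgcs1 alone held it. Of the genes printed, Isg15, Ifit1 and Hmgcs1 had intervals below 1 at both days, and Ifit3, with 7, 9 and 37 UMIs, did not.

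Clock genes had medians above those of all genes after injury. Of 14 listed, 5 reached the minimum, with medians of 0.62 at day 7 and 0.997 at day 14, and Per3 was past 2-fold at day 7 (3.31% of all genes) and Per3 and Nr1d1 at day 14 (3.2%). Of all 14, 3 lay below naïve at day 7 and 4 at day 14. Nr1d1, a repressor of the clock, stood at 62.4, 96.4 and 129.8 CPM, a ratio of 2.08 (1.01 to 4.97) at day 14, Tef, an output factor, at 62.4, 116 and 125 CPM, a ratio of 2.01 (0.977 to 4.81), and Nr1d2 at 78.0, 113 and 128 CPM. Dbp, another output factor, had 3, 16 and 40 UMIs, and Clock itself stood at 125, 84.3 and 101 CPM. In Egr3 glia the medians were 0.65 and 0.83, and the list summed to 1463, 1860 and 1857 CPM in endothelial cells.

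**Figure D5:**
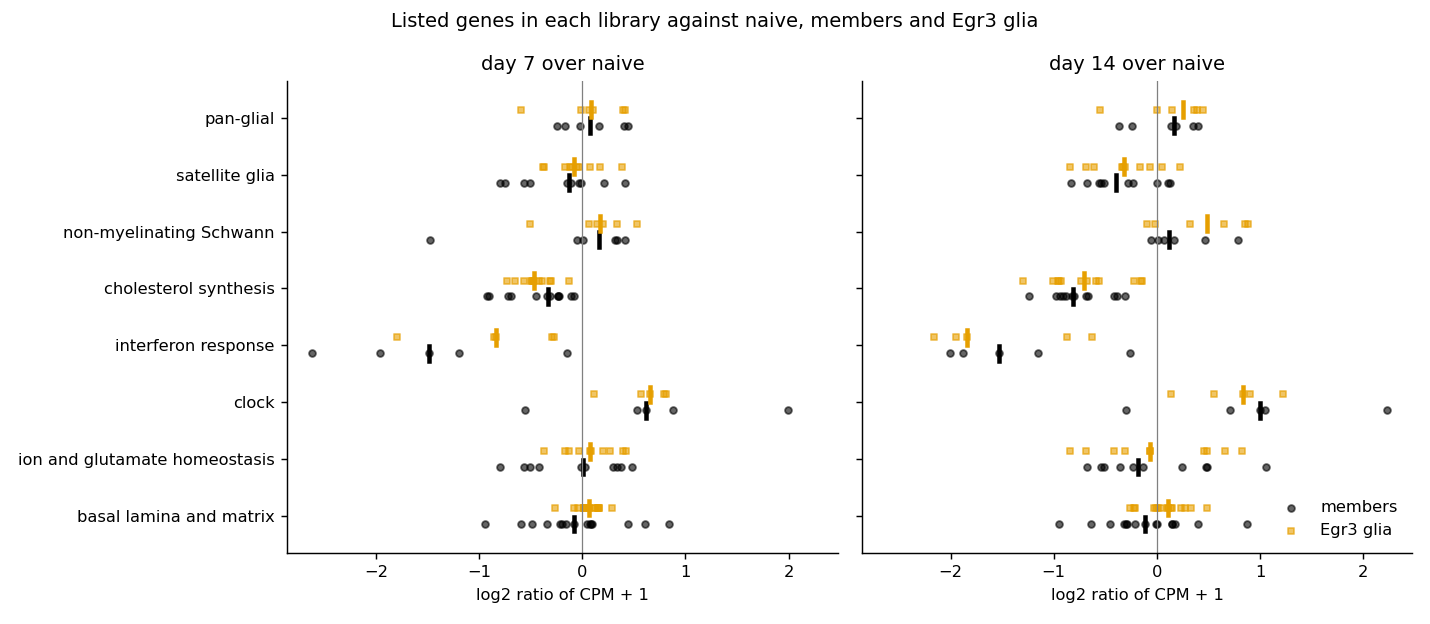
Log2 ratios of single genes at day 7 (left) and day 14 (right) over the naïve library (x axes, CPM with 1 added) for 8 gene lists (y axis) in the members and in Egr3 glia. Vertical bars are medians. All 12 cholesterol genes and all 5 interferon-response genes of the members lie below 0 on both sides, 4 of 5 clock genes lie above 0, and satellite glia genes have medians of -0.13 and -0.40.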

How the data were processed

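Single-cell suspensions of DRGs were sequenced as 3 droplet libraries. The authors made and deposited 1 matrix of UMI counts per library, with 31053 genes, and the submitters' processing notes name Cell Ranger 3.0.2 and mm10. The deposited counts were whole numbers and not normalised. Counting over introns or by strand was not given in the sources used here. No file holds cell types, so cells were taken by the rule and no cluster names were used. The members and gene lists were chosen with earlier results of these data known.

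Counts were summed over the cells of a set and library and divided by their total (CPM). Log2 ratios had 1 CPM added, and genes with a mean of at least 50 CPM over the libraries were counted at a threshold of 2-fold. With 1 library per condition no test was made. Exact 95% intervals (Clopper-Pearson, Poisson and conditional binomial) cover counting error only. A library at 0 was set to a limit of 3 counts, and folds over that limit leave out the counting error of the other library. From the genes past 2-fold at both days, or in all 3 libraries against another set, up to 10 per direction with the largest difference were named. For differences between libraries, at least 20% of the members had to hold a UMI in the library where the gene was highest. Against another set, at least 20% of cells had to hold a UMI in 1 library or more. These cells were the members for higher genes and the other set for lower genes. Mitochondrial, ribosomal and predicted Gm genes were left out. Doublets were looked for with Scrublet as an alternative and left in. Neighbours were found over 30 principal components of 2000 variable genes without the genes of the rule. The ratio calculation was tested on simulated data. Python 3.11.15, numpy 2.4.6, scipy 1.17.1, scanpy 1.11.5, scikit-learn 1.9.0 and matplotlib 3.10.9 were used. Other cell limits, limits of the rule, normalisations, pseudocounts and cell weights were tried. Some genes of the lists are counted but not reported here by name.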

Additional observations from a re-analysis of the deposited data

How the results depend on the processing

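No paired analysis was possible because the labels give 1 library for each condition. Of the values that answer a comparison, 147 stayed within the range set for them under other settings, 89 moved and 2 reversed, and of those for single genes 2679 stayed, 130 moved and 7 reversed. The cause of each difference was not tested. Depth limits single genes: 3 UMIs equal 23.4 CPM in the naïve members.

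Member shares (naïve, day 7 and day 14) were 0.670%, 0.462% and 0.147% when cells needed 1000 genes and could hold 10% mitochondrial UMIs, where the folds over naïve reversed to 0.689 and 0.219. They were 0.666%, 1.64% and 1.72% with a Fabp7 limit of 0.25%, and 2.06%, 3.54% and 4.18% with 1%, where the day 14 fold was 2.03. With at least 2 UMIs of Entpd2 and Cdh19 they were 0.127%, 1.19% and 1.85%, with folds of 9.40 and 14.6. Of glial cells alone the day 14 share was 3.80%. In settings added after the data were seen, the shares were 3.84%, 4.96% and 6.27% without the condition on Entpd2 (folds 1.29 and 1.63), 3.93%, 5.03% and 6.30% without that on Scn7a (1.28 and 1.60), 3.68%, 5.63% and 5.85% without that on Fabp7 (1.53 and 1.59), 1.94%, 4.40% and 4.62% without that on Egr3, and 0.603%, 1.19% and 1.20% without members with 3 UMIs of 5 fibroblast genes, with a day 14 fold of 1.99.

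Genes at least 2-fold higher and lower at day 7, then at day 14, numbered 233, 263, 267 and 269 with the Fabp7 limit of 0.25%, 46, 26, 51 and 38 with 1%, 18, 15, 23 and 40 without the condition on Egr3, and 3365, 1722, 3778 and 1581 with no minimum CPM. Higher genes numbered 186 and 184 with totals that left out mitochondrial genes and Gm42418, and 79 and 62 with no cell filter, where the day 14 median of all genes was -0.15. With each cell weighted equally, 203 and 209 genes were lower, and with a pseudocount of 10 CPM 68 were higher at day 14.

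Against Egr3 glia, higher genes numbered 23, 2, 8, 12, 2, 0 and 17, in the order of the Fabp7 limits of 0.25% and 1%, totals without mitochondrial genes, equal cell weights, the removal of members with 3 UMIs of 4 fibroblast genes, no condition on Egr3, and at most 1 Scn7a UMI. Lower genes numbered 35 and 3 with those Fabp7 limits and 4 without the condition on Egr3. Against Fabp7-high glia, 56 were lower with the limit of 0.25% and 21 with no cell filter. With no minimum CPM, higher and lower genes numbered 63 and 150 against Egr3 glia, 183 and 231 against Fabp7-high glia, and 197 and 418 against Scn7a-positive glia. Leaving out 1 library asked for the 2-fold difference in fewer libraries, which by itself tends to raise the counts. This gave 6 to 17 higher and 14 to 21 lower genes against Egr3 glia. The ranges were 35 to 46 and 38 to 66 against Fabp7-high glia, and 64 to 95 and 91 to 116 against Scn7a-positive glia.

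Without the condition on Egr3 the log2 ratios reversed to -0.082 for Efnb1 and 0.40 for Ifit1 at day 7, -0.33 and -0.38 for Cxcl10 at day 7 and day 14, and -0.23 for S100a8 at day 14. Dcn at day 14 reversed to 3.78 without members with 3 UMIs of 4 fibroblast genes, and S100a9 at day 14 to -0.084 with at most 1 Scn7a UMI. With the stricter cell limits 9 naïve members were left, and with at least 2 UMIs of Entpd2 and Cdh19 4, so gene levels were not computed there.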

Other observations

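Further gene lists were read in the selected glia. Antigen presentation genes were lower at day 7 and near their naïve level at day 14. Of 7 listed, 3 reached the minimum of 50 CPM, none differed 2-fold, and the median log2 ratios over naïve were -0.46 and 0.02. B2m, the light chain of class I molecules, stood at 811, 723 and 1097 CPM, the class I genes H2-K1 and H2-D1 at 530.2, 385 and 538 and 389.8, 251 and 379 CPM. The list summed to 1754, 1378 and 2082 CPM in the members and 1660, 1356 and 1914 CPM in Egr3 glia. The class II gene H2-Aa had 0, 1 and 8 UMIs and its chaperone Cd74 1, 2 and 10 UMIs.

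Immediate early genes were higher at day 7 than at day 14. Of 12 immediate early and heat shock genes, 6 reached the minimum, with medians of 0.53 and -0.36, and Hspa1a was the 1 gene past 2-fold, lower at both days, as 3.12% and 3.47% of all genes were. Fos stood at 273, 491 and 264 CPM, with ratios over naïve of 1.80 (1.25 to 2.66) and 0.967 (0.671 to 1.43), and 49 of its 204 UMIs at day 7 came from 1 cell. Egr1, a relative of the excluded Egr3, stood at 117, 214 and 60.6 CPM, with ratios of 1.83 (1.05 to 3.41) and 0.518 (0.281 to 1.01). Under other settings its log2 ratio ran from 0.085 to 1.87 at day 7 and from -1.04 to 0.20 at day 14. The rule left out cells with an Egr3 UMI, and the part of that condition in the levels of these genes was not tested. Jund stood at 600.3, 699 and 608 CPM and Junb at 54.6, 108 and 67.8 CPM.

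Genes of repair Schwann cells, which form in injured nerve, were mostly near 0. Of 10 listed, 3 reached the minimum, with medians of 0.02 and 0.15 and none past 2-fold. Jun, the factor that drives that state, stood at 327, 525 and 363 CPM, with ratios of 1.60 (1.15 to 2.29) and 1.11 (0.798 to 1.58), and Sox2, a factor of immature glia, at 515, 520.4 and 551 CPM. Shh and Gdnf had 0, 0 and 3 and 0, 0 and 5 UMIs, and Olig1 and Artn had none. Of 8 cell cycle genes 1, Pcna, reached the minimum, at 78.0, 69.9 and 47.6 CPM, while Mki67 had 0, 0 and 2 UMIs and Cdk1, Birc5 and Cenpf had none.

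Among 9 cytokine genes Cxcl10, a chemokine that draws T cells, was the 1 at the minimum. It had no UMI in the naïve members, 24 UMIs in 5 members at day 7 (7.58% of cells) and 72 in 20 members at day 14 (16.8%). These levels were 2.47-fold and 4.44-fold the naïve limit of 3 counts, without the counting error of the injured libraries. Endothelial cells held a Cxcl10 UMI in 3.87%, 1.03% and 3.18% of cells, at median depths of 4346, 4967 and 5642 UMIs against 3942.5, 5174.5 and 5185 UMIs in the members. Egr3 glia had 44.3, 56.5 and 51.7 CPM of Cxcl10, and with Egr3-positive cells let in the log2 ratios of the members were -0.33 and -0.38. Ccl2 and Il6 had no UMI in any member, and Il34, a ligand of the macrophage receptor Csf1r, had 7, 7 and 16 UMIs.

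Growth factor genes and matrix genes were close to their naïve levels. Of 14 growth factors and receptors 8 reached the minimum, with medians of 0.22 and 0.14, and Ngfr, lower at day 7 as 3.12% of all genes were, was the 1 past 2-fold. Ptn, a heparin-binding growth factor, stood at 2229.8, 2371 and 2117 CPM, Ntrk2, the receptor for brain-derived neurotrophic factor, at 647, 624 and 632 CPM, and Fgfr1 at 218, 296 and 356 CPM with a ratio of 1.63 (1.10 to 2.51) at day 14. Of 16 genes of the basal lamina and matrix 15 reached the minimum, with medians of -0.09 and -0.11 and none past 2-fold. Sparc stood at 3368, 3602 and 3368 CPM, the collagen gene Col4a1 at 265, 137 and 137 CPM with ratios of 0.518 (0.333 to 0.817) and 0.517 (0.346 to 0.789), and Nid1, a linker of the basal lamina, at 538, 424 and 345 CPM with ratios of 0.788 (0.593 to 1.06) and 0.641 (0.488 to 0.850). The intervals of Col4a1 lay below 1 at both days, as did that of Nid1 at day 14.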
